A study of Gallus gallus with 12 samples.

Results

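The hearts of Dwarf Recessive White chicken embryos incubated in hypoxia were compared with hearts of the same breed incubated in normoxia. The members are the 4 arrays whose titles carry this breed and one of the 2 conditions, 2 arrays per condition, out of 12 arrays in the series. The other 8 arrays hold Shouguang and Tibetan chicken hearts, again with 2 arrays in hypoxia and 2 in normoxia for each breed, and they lend their spread to the test. Fertilized eggs of full sibs were used in every group, and each array measured the RNA of embryonic heart on the Affymetrix chicken genome array. The sources used here give no oxygen level, no day of incubation and no sex, and do not say how many hearts were pooled for an array. Since the labels do not say that the arrays of a group came from separate embryos, the p-values measure only how these arrays scatter, and part of that scatter may be technical.

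When oxygen is short, the transcription factors HIF1A and EPAS1 escape the prolyl hydroxylases and the VHL ubiquitin ligase that otherwise mark them for destruction, and they then switch on genes of glycolysis, vessel growth and oxygen saving. Much of that control acts on the proteins and not on the messenger RNA of the factors. The embryonic heart also responds to load and stretch, through immediate early genes such as JUN, EGR1 and ATF3 and through matricellular proteins such as CCN2. In birds the female carries the Z and W sex chromosomes and the male carries a pair of Z chromosomes, so W-linked transcripts mark female tissue.

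Signals were on the log2 scale, where a difference of 1 is a 2-fold change. A probe set is a group of oligonucleotides that report on one transcript. A dim limit was set at the 40th percentile of the probe sets' mean log2 signals, a value of 6.31, and the 23063 probe sets at or above it were tested. Differences are hypoxia minus normoxia ± the limma standard error (SE), with n = 2 arrays per condition, and the threshold was a Benjamini-Hochberg adjusted p of 0.05 over all tested probe sets. The tissue label was borne out by the cardiac muscle markers. TNNT2, ACTC1, MYL3, ACTN2, MYH7B, RYR2 and the atrial hormone NPPA all lay at or above the 93.4th percentile of the tested genes. RYR2, the lowest of them, had log2 signals between 12.31 and 12.59 on the 4 arrays.

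The arrays of this breed were not alike in their sex chromosome signal. HINTW, a W-linked gene, had log2 signals of 14.42 and 12.88 in hypoxia replicates 1 and 2 and of 7.74 and 12.93 in normoxia replicates 1 and 2. Normoxia replicate 1 was therefore far lower than the other 3 arrays, and hypoxia replicate 1 was the highest. The mean log2 signal of 14 W-linked genes ran the same way, at 9.49 and 8.15 in hypoxia and 6.01 and 8.42 in normoxia. Z-linked genes ran the other way, and their mean minus that of the autosomal genes was -0.349 and -0.08 in hypoxia against -0.026 and -0.064 in normoxia. Over all 14 measured W-linked genes the median difference between hypoxia and normoxia was 1.59, and over 476 Z-linked genes it was -0.17, whereas the median over all 10276 tested genes was 0.00. When only the replicate 2 arrays of both conditions were used, these medians were 0.00 for W and 0.01 for Z. Values from that pair of arrays, which are close in W-linked signal, are given below beside some of the named genes. A gene given without such a value was not necessarily unchanged there. Such values rest on a single array per condition, and whether sex make-up caused a gene's difference was not tested.

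**Figure D1:**
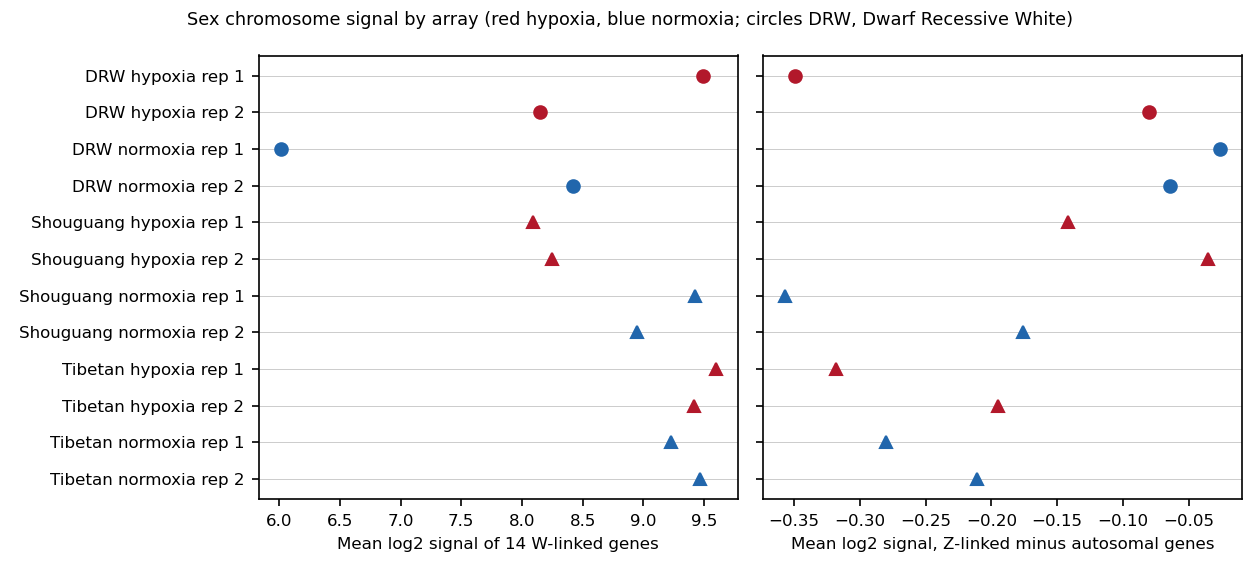
Sex chromosome signal on each of the 12 arrays, with the mean log2 signal of 14 W-linked genes on the left and the mean of 476 Z-linked genes minus that of the autosomal genes on the right. Red marks are hypoxia and blue marks normoxia, and circles are the Dwarf Recessive White arrays. Normoxia replicate 1 of this breed has the lowest W-linked mean, 6.01, and in that mean the 2 normoxia arrays of the breed differ more than the replicates of any other group.

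One gene passed the test. CCN2, which encodes connective tissue growth factor, a secreted matricellular protein induced by stretch and by TGF-beta, had log2 signals of 13.62 and 13.64 in hypoxia and 12.05 and 12.26 in normoxia. Both hypoxia arrays were thus above both normoxia arrays by far more than the arrays of a condition differed from each other. CCN2 rose 2.79-fold, by 1.48 ± 0.16 on the log2 scale (limma adjusted p = 0.0192; 1 probe set, on chromosome 3 of the GRCg7b assembly). The difference in the replicate 2 arrays alone was 1.38. Size and direction held when any of the 4 arrays was left out, at 1.37 to 1.59, but the call did not. The adjusted p was 0.194 without hypoxia replicate 1, 0.0736 without hypoxia replicate 2 and 0.114 without normoxia replicate 1. With the W-linked level of each array as a covariate it was 0.394, at a difference of 1.39. It also missed the threshold without either Shouguang hypoxia array (0.0539 and 0.054), without either Tibetan normoxia array (0.0638 and 0.0649) and without the intensity trend (0.365).

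This was 1 of 23063 probe sets, or 0.00434%. At an unadjusted p under 0.05 there were 1461 probe sets, or 6.33%. The median absolute difference between the condition means, each taken over 2 arrays, was 0.19. Between single arrays it was 0.25 for the hypoxia replicates and 0.23 for the normoxia replicates. Means scatter less than single arrays, so the first value cannot be set directly against the other 2. Signals differed at least 2-fold in 750 probe sets. The number of arrays limits the precision, and the median SE of a difference was 0.26. Apart from CCN2, the genes below did not pass and are given by their values. An unadjusted p under 0.05 serves below only to pick which members of a gene list are described. The 3 members with the smallest p were picked by rule, though for some lists not all or none of the 3 are described. Any further member, like any named without such a p, was named after its value had been seen.

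**Figure D2:**
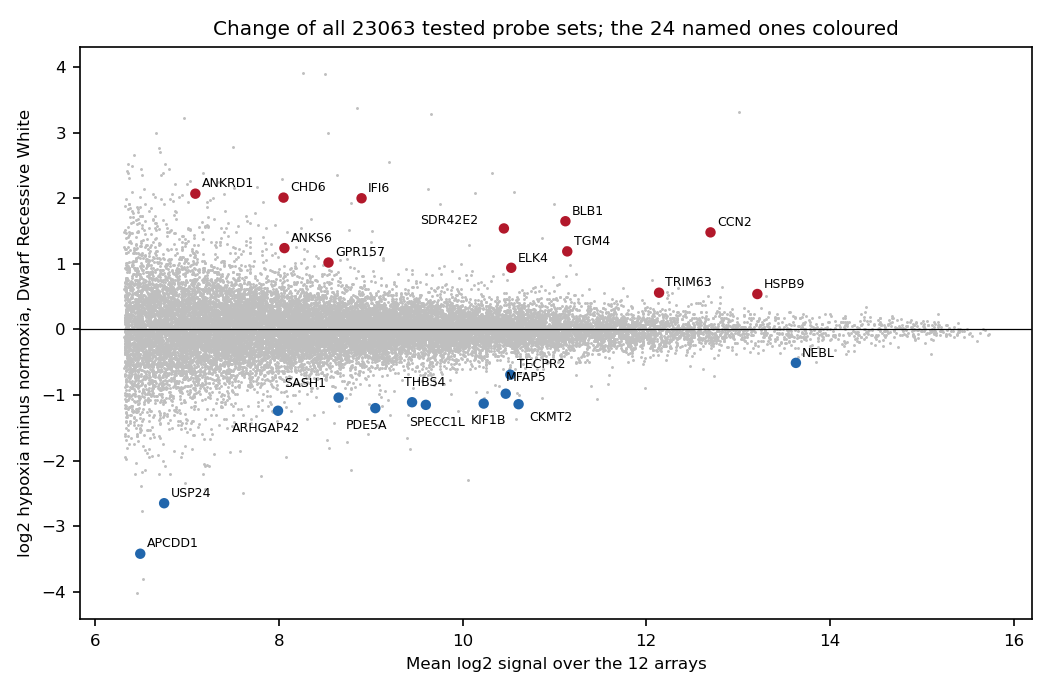
Difference between hypoxia and normoxia in Dwarf Recessive White (log2, vertical axis) against the mean log2 signal over the 12 arrays (horizontal axis) for all 23063 tested probe sets in grey. The 24 coloured points are the 12 genes with the smallest p above 0 (red) and the 12 below 0 (blue) whose arrays did not overlap; CCN2, at 1.48, is the one that passed the test.

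Among the genes with the strongest evidence of a higher signal in hypoxia, BLB1 came next after CCN2. BLB1 encodes a class II beta chain of the chicken major histocompatibility complex, which presents peptides to helper T cells. Its log2 signals were 12.41 and 12.38 in hypoxia and 10.83 and 10.67 in normoxia, a difference of 1.65 ± 0.23 (limma adjusted p = 0.0995, chromosome 16). The other 3 of its 4 probe sets gave differences of 1.25 to 2.78, so all pointed the same way. Class II genes have near-identical copies, and the probe sets could not be assigned to one copy here. BLB1 was also higher in hypoxia in the other breeds, by 0.91 in Shouguang and 0.82 in Tibetan hearts.

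ANKRD1, a stretch-responsive protein of the cardiac sarcomere and nucleus, was measured by 2 probe sets. The brighter one had log2 signals of 11.73 and 12.11 in hypoxia and 9.90 and 10.11 in normoxia, a difference of 1.92 ± 0.37 (limma adjusted p = 0.226). The dimmer one gave 2.07 ± 0.39, with both normoxia arrays under the dim limit, and 1.46 when signals under that limit were raised to it. Both probe sets separated the conditions, and the replicate 2 arrays alone gave 2.48 for the dimmer one. In Shouguang the brighter probe set differed by 0.53 and in Tibetan hearts by -0.05.

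TRIM63 encodes MuRF1, a ubiquitin ligase of striated muscle that marks sarcomeric proteins for degradation. Its log2 signals were 12.23 and 12.17 in hypoxia and 11.67 and 11.61 in normoxia, a difference of 0.56 ± 0.11 (limma adjusted p = 0.264). The replicates of each condition were close together and far from the other condition. HSPB9, a small heat shock protein, had 13.39 and 13.42 in hypoxia against 12.86 and 12.86 in normoxia, a difference of 0.54 ± 0.10, and its second probe set gave 0.51. In Shouguang and Tibetan hearts TRIM63 differed by 0.06 and 0.09.

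IFI6, an interferon-stimulated gene, had log2 signals of 10.70 and 9.55 in hypoxia and 8.12 on both normoxia arrays. The hypoxia arrays differed from each other by more than 1 unit. Both lay above normoxia, which the rule that picked these genes required. The difference was 2.0 ± 0.38, and 1.43 in the replicate 2 arrays. TGM4, a transglutaminase that cross-links proteins, had 11.55 and 12.25 in hypoxia and 10.88 and 10.54 in normoxia, a difference of 1.19 ± 0.21. ELK4, a serum response factor partner in the induction of immediate early genes, had 10.58 and 10.61 against 9.71 and 9.60, a difference of 0.94 ± 0.18. These 3 genes had limma adjusted p-values of 0.226.

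The rest of the 12 were SDR42E2, ANKS6, GPR157 and CHD6, with differences of 1.54, 1.24, 1.02 and 2.01. The replicate 2 arrays alone gave 1.09 for SDR42E2 and 0.78 for GPR157. GPR157 is an orphan G protein-coupled receptor, ANKS6 a ciliary protein and CHD6 a chromatin remodeller. For CHD6 the other 2 probe sets gave -0.51 and -0.24, so the gene's probe sets disagreed in sign. The other probe sets of ANKS6 ranged from -0.14 to 0.52, and the second probe set of GPR157 gave 0.14. Across the 31 genes at an unadjusted p under 0.001 that had several probe sets, 46 of the 64 other probe sets had the same sign as the one named.

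On the other side, THBS4 had the smallest p among genes with a lower signal in hypoxia. Thrombospondin 4 is a matricellular protein of tendon and heart. The log2 signals were 8.81 and 8.76 in hypoxia and 9.99 and 9.80 in normoxia, a difference of -1.11 ± 0.16 (limma adjusted p = 0.0995). THBS4 is placed on Z, and the replicate 2 arrays alone gave -1.05. MFAP5, a microfibril glycoprotein, had 9.79 and 9.99 in hypoxia and 10.84 and 10.91 in normoxia, a difference of -0.98 ± 0.16 with a limma adjusted p of 0.226. Its second probe set gave -0.57.

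PDE5A, the phosphodiesterase that degrades cyclic GMP, had log2 signals of 8.33 and 8.46 in hypoxia and 9.53 and 9.66 in normoxia. The difference was -1.20 ± 0.22, and its other 2 probe sets gave -1.14 and -0.60. Shouguang and Tibetan hearts differed by -0.12 and -0.02 for PDE5A. CKMT2, the mitochondrial creatine kinase of striated muscle, had 9.75 and 10.30 in hypoxia and 11.41 and 10.92 in normoxia, a difference of -1.14 ± 0.22. CKMT2 is Z-linked, and the replicate 2 arrays alone gave -0.62 and thus a smaller difference.

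NEBL encodes nebulette, a thin filament protein of the cardiac Z-disc, and had log2 signals of 13.17 and 13.22 in hypoxia and 13.67 and 13.74 in normoxia. The difference of -0.51 ± 0.10 held for this probe set only, since the other 4 ranged from -0.20 to 0.49. SASH1, a signalling scaffold, and ARHGAP42 differed by -1.04 ± 0.20 and -1.24 ± 0.26. The other 4 probe sets of ARHGAP42 ranged from -1.10 to 0.21. The remaining lower genes were KIF1B, TECPR2 and SPECC1L, at -1.13, -0.69 and -1.15, and the dim pair APCDD1 and USP24. APCDD1, an inhibitor of Wnt signalling, had 3.13 and 4.73 in hypoxia and 7.12 and 7.59 in normoxia. Both hypoxia arrays were under the dim limit, and the difference was -3.42 as measured and -1.04 with such signals raised to the limit. Its other probe set gave 0.17. USP24, a deubiquitinase, was -2.65 as measured and -1.10 after raising, and its other 4 probe sets ranged from -1.16 to 0.17.

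**Figure D3:**
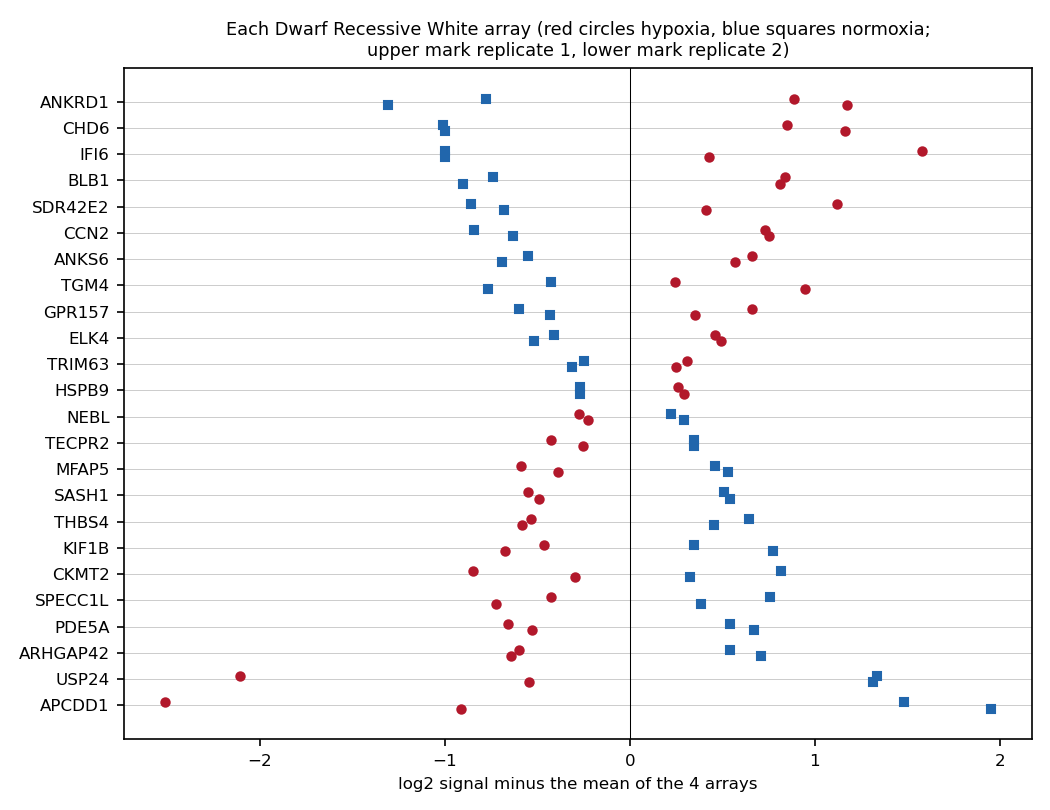
Log2 signal on each of the 4 Dwarf Recessive White arrays minus the mean of the 4, for the 24 genes named by smallest p. Red circles are hypoxia and blue squares normoxia, with replicate 1 drawn above replicate 2. CCN2, BLB1, ELK4, TRIM63, HSPB9, NEBL and SASH1 have close replicates, while IFI6, TGM4, USP24 and APCDD1 have hypoxia arrays far apart.

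Of the 32 gene lists, immediate early genes had the highest median difference of the pathway and cell type lists. These genes are transcribed within minutes of a growth, stress or stretch signal without new protein synthesis. Of the 16 measured members, 13 were above 0 and 3 below, and the median difference was 0.35, against 0.00 over all tested genes. None passed the adjusted threshold, but 8 of the 16 were higher at an unadjusted p under 0.05 and none lower, where 3.25% of all tested genes were higher at that level. The arrays did not overlap, with hypoxia higher, for 11 of the 16, against 18.9% of all tested genes. The list's median was 0.34 in the replicate 2 arrays alone and 0.26 to 0.46 when each of the 4 arrays was left out.

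ATF3, a stress-induced transcription factor, had log2 signals of 9.58 and 9.78 in hypoxia and 7.64 and 7.87 in normoxia, a difference of 1.93 ± 0.44. MYC, which drives growth and ribosome production, had 9.87 and 9.77 against 9.0 and 8.95, a difference of 0.84 ± 0.17. JUN, a subunit of the AP-1 factor, had 12.29 and 12.41 against 11.43 and 11.76, a difference of 0.75 ± 0.16. In each of these the hypoxia arrays lay above both normoxia arrays. The limma adjusted p-values were 0.316, 0.265 and 0.27.

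Another 5 members were higher at that level. CYR61, a matricellular relative of CCN2, had log2 signals of 11.31 and 11.83 in hypoxia and 9.90 and 10.45 in normoxia, a difference of 1.39 ± 0.32. BTG2, an antiproliferative gene, and ZFP36L1, which promotes decay of AU-rich messengers, differed by 0.57 ± 0.14 and 0.52 ± 0.17. EGR1, a zinc finger factor, differed by 0.84 ± 0.31, but normoxia replicate 2 (11.47) nearly reached hypoxia replicate 1 (11.56), and the replicate 2 arrays gave 0.45. KLF6 differed by 0.31 ± 0.13. The 3 members below 0 were DUSP4, KLF2 and RHOB, at -0.21, -0.18 and -0.17.

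The same list had a median of 0.14 in Shouguang and -0.01 in Tibetan hearts. ATF3 differed by 1.17 and -0.06 in these breeds, CYR61 by 0.77 and -0.09, and MYC by 0.29 and 0.28. EGR1 differed by 0.71 and 0.65 there, beside 0.84 in Dwarf Recessive White. For CCN2 the values were 1.07 in Shouguang and 0.42 in Tibetan hearts. The effect in Dwarf Recessive White minus the mean of the other 2 breeds was 0.74 ± 0.20 for CCN2, 1.37 ± 0.54 for ATF3 and 0.55 ± 0.21 for MYC, and none of these differences of effects passed (limma adjusted p = 0.998 for each).

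**Figure D4:**
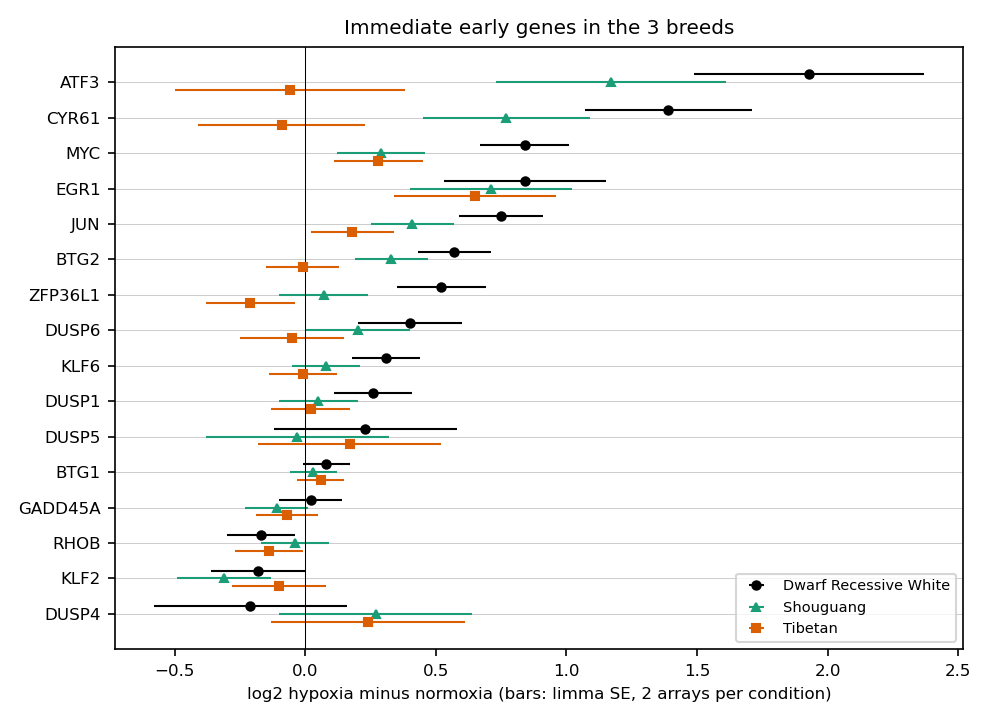
Difference between hypoxia and normoxia (log2, horizontal axis) for the 16 immediate early genes in the 3 breeds; bars are the limma SE from 2 arrays per condition. Black circles, Dwarf Recessive White, lie to the right of the Tibetan squares for most genes at the top, with ATF3 at 1.93 against -0.06.

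The targets of the hypoxia-inducible factors were evenly split. Among 37 such genes outside glycolysis, 18 were above 0 and 19 below, with a median of -0.01. At an unadjusted p under 0.05, 5 were higher, or 13.5% against 3.25% of all tested genes. At the same level 3 were lower, or 8.11% against 2.82%. VEGFA, the main signal for vessel growth, had log2 signals of 9.46 and 9.46 in hypoxia and 9.58 and 10.01 in normoxia, a difference of -0.34 ± 0.21. ADM, a vasodilator peptide, had 12.14 and 11.65 against 12.06 and 11.99, and its groups overlapped. EGLN3, a prolyl hydroxylase induced by HIF, differed by -0.14 ± 0.34 and NDRG1 by 0.13 ± 0.14. Their other probe sets had the opposite sign, at 0.14 for EGLN3 and -0.14 to -0.12 for NDRG1.

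BNIP3, which directs mitochondria to autophagy, had log2 signals of 12.99 and 12.95 in hypoxia and 12.73 and 12.67 in normoxia, a difference of 0.27 ± 0.11. CA4, a membrane carbonic anhydrase, differed by 0.51 ± 0.16 and CXCR4, the receptor of the chemokine CXCL12, by 0.63 ± 0.19. P4HA2, a collagen prolyl hydroxylase, differed by -0.74 ± 0.25. BHLHE40 and JMJD6 were at 0.58 and 0.31, and FAM162A and the VEGF receptor FLT1 at -0.26 and -0.48. In the replicate 2 arrays alone BHLHE40 was at 0.20 and FAM162A at -0.16. Other probe sets disagreed in sign for FLT1, at 0.08 to 0.23, and for JMJD6, at -0.03. The median of this list was 0.16 in Tibetan hearts and 0.01 in Shouguang hearts.

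Of the 12 regulators of the pathway, 10 were below 0, with a median of -0.13. HIF1A differed by -0.11 ± 0.15, within its SE, and its other probe set gave -0.13. EPAS1 differed by -0.22 ± 0.18, slightly more than its SE, and its other probe set gave -0.48. TCEB1, the elongin C subunit of the VHL ligase, was the only member at an unadjusted p under 0.05, at -0.40 ± 0.18. EGLN1, the main oxygen-sensing prolyl hydroxylase, was at 0.32 ± 0.15 and VHL at -0.62 ± 0.36.

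Among 25 genes of glycolysis and glucose transport, 15 were above 0, with a median of 0.04. SLC16A3, the lactate exporter MCT4, had log2 signals of 8.95 and 9.30 in hypoxia and 8.47 and 8.34 in normoxia, a difference of 0.72 ± 0.26. LDHA, which turns pyruvate into lactate, had 12.65 and 12.55 against 12.36 and 12.29, a difference of 0.27 ± 0.12. The conditions did not overlap for either gene. In the list, hypoxia was higher without overlap for 6 of the 25 genes (24%), against 18.9% of all tested genes. In Shouguang and Tibetan hearts SLC16A3 was at 0.33 and 1.08 and LDHA at 0.27 and 0.68. ENO2, an enolase, was at -0.71 ± 0.30. The glucose transporter SLC2A1 was at 0.01 ± 0.16, and PDK1, which blocks pyruvate entry into the mitochondria, at -0.21 ± 0.10. ENO2 and PDK1 were the 2 genes of the list with hypoxia lower without overlap (8%, against 18.1% of all tested genes). Hexokinase HK2 was at 0.42 ± 0.39, and at -0.18 in the replicate 2 arrays alone.

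Differences in genes of mitochondrial respiration were small and mostly below 0. Of 61 measured subunits of oxidative phosphorylation, 52 were below 0 and 9 above, with a median of -0.09. For 32 of the 61 (52.5%) both hypoxia arrays were under both normoxia arrays, against 18.1% of all tested genes. Only 4 subunits were lower at an unadjusted p under 0.05, or 6.56% against 2.82% of all tested genes. They were COX7C at -0.27 ± 0.09, UQCRB at -0.42 ± 0.15, CYCS at -0.26 ± 0.10 and NDUFA9 at -0.25 ± 0.11. COX7C is Z-linked and was at -0.07 in the replicate 2 arrays alone, where UQCRB was at -0.26 and the list's median was -0.07. Other probe sets reached 0.22 for UQCRB and 0.15 for NDUFA9. The list's median was -0.13 in Shouguang, with 56 of 61 below 0, and -0.01 in Tibetan hearts.

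Fatty acid uptake and oxidation had 21 of 30 genes below 0 and a median of -0.11, and the tricarboxylic acid cycle 12 of 16 and -0.09. ACAA2, a thiolase of beta-oxidation placed on Z, was the only one of these at an unadjusted p under 0.05, at -0.26 ± 0.11 over all arrays and -0.09 in the replicate 2 arrays. Sterol genes were similar, with 17 of 21 below 0 and a median of -0.12. HMGCS1, an early enzyme of cholesterol synthesis, had log2 signals of 8.88 and 8.39 in hypoxia and 9.77 and 9.55 in normoxia, a difference of -1.03 ± 0.30. HMGCS1 is Z-linked too, and was at -1.16 in the replicate 2 arrays.

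In the contraction and calcium handling list, 31 of 41 genes were below 0 and the median was -0.07. For 23 of the 41 (56.1%) the hypoxia arrays lay under the normoxia arrays without overlap, against 18.1% of all tested genes. At an unadjusted p under 0.05, 1 gene was higher, ANKRD1 (2.44% of the list against 3.25% of all tested genes), and 5 were lower (12.2% against 2.82%). MB, myoglobin, the oxygen store of muscle, had log2 signals of 14.77 and 14.80 in hypoxia and 15.25 and 15.08 in normoxia, a difference of -0.38 ± 0.08. The other 4 were CKMT2, FKBP1B, CACNA1C and MYH7. FKBP1B, which stabilises the ryanodine receptor, was at -0.50 ± 0.12, and at -0.35 in the replicate 2 arrays. CACNA1C, the pore of the L-type calcium channel, was at -0.45 ± 0.18. The myosin heavy chain MYH7B was at -0.06 ± 0.12. The hormone gene NPPA was at 0.00 ± 0.08, with signals near the top of the array's range.

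MYH7, a slow myosin heavy chain, had log2 signals of 7.52 and 7.90 in hypoxia and 9.69 and 10.03 in normoxia. The difference was -2.15 ± 0.95, whereas Shouguang hearts differed by 2.55 and Tibetan hearts by 0.81. The arrays of this breed did not overlap and were close within each condition, while the SE takes in the spread of the other breeds' arrays. Fitted on the 4 arrays of the breed alone, MYH7 was among 6 named genes that passed, with ALB, ANKRD1, ATF3, BLB1 and CCN2.

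Of 23 cardiac transcription factors, 10 were above 0 and 13 below. TBX20, which patterns the chambers and valves, had log2 signals of 10.12 and 10.09 in hypoxia and 10.78 and 11.36 in normoxia, a difference of -0.97 ± 0.26, and its other probe set gave -0.83. MEF2C, a muscle gene activator placed on Z, was at -0.88 ± 0.27 and at -0.61 in the replicate 2 arrays, and its other 2 probe sets gave -0.74 and 0.03. MYOCD, the coactivator of serum response factor, was at 0.33 ± 0.13. GATA5 was at -0.29 ± 0.12, and at -0.12 in the replicate 2 arrays.

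Extracellular matrix and fibroblast genes were balanced, with 27 above 0 and 26 below, although the list holds CCN2 and THBS4. MGP, an inhibitor of calcification, had log2 signals of 13.49 and 13.38 in hypoxia and 12.73 and 12.81 in normoxia, a difference of 0.67 ± 0.14, beside 1.09 in Shouguang and 0.77 in Tibetan hearts. SPP1, osteopontin, was at 1.54 ± 0.34. In TGF-beta and BMP signalling 21 of 39 genes were above 0. CHRD, a BMP antagonist, was at 1.02 ± 0.30, ID3, a target of BMP signals, at -0.53 ± 0.21, and TGFBR3, a co-receptor of TGF-beta, at -0.83 ± 0.34. Also at an unadjusted p under 0.05 were ID1 at -0.32, SMAD2 at -0.35, SMAD1 at 0.37 and the dim BMP6 at -1.01. SMAD2 is Z-linked and was at -0.08 in the replicate 2 arrays.

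Growth hormone, insulin and IGF genes were listed because the breed is named for its dwarfism, whose mutation the labels do not give. The growth hormone receptor GHR had log2 signals of 12.24 and 12.55 in hypoxia and 12.59 and 12.49 in normoxia, and the groups overlapped. IRS2, an adaptor of the insulin and IGF receptors, had 10.27 and 9.90 against 9.30 and 9.22, a difference of 0.83 ± 0.19. Its second probe set gave 0.20. SOCS3, a feedback inhibitor of cytokine receptors, was at 0.72 ± 0.25 and IGF2BP2 at 0.31 ± 0.14, or 0.09 in the replicate 2 arrays. Of the 19 genes in the list 9 were above 0, and the median was -0.08 over the 4 arrays but 0.01 to 0.07 when each array was left out, so its sign was not stable.

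Antioxidant genes were evenly split, 18 above 0 and 18 below. GLRX, glutaredoxin, had log2 signals of 9.50 and 10.09 in hypoxia and 8.58 and 8.90 in normoxia, a difference of 1.06 ± 0.24. GLRX is Z-linked, and was at 1.19 in the replicate 2 arrays. The metallothionein MT3 was at 0.97 ± 0.23, and at 0.67 in the replicate 2 arrays. TXN, thioredoxin, also on Z, was at -0.33 ± 0.11 over all arrays and -0.10 in the replicate 2 arrays. MT4, another metallothionein, and SQSTM1, an autophagy adaptor, were at 0.82 and 0.52. SQSTM1 was at 0.34 in the replicate 2 arrays, and its other 3 probe sets ranged from -0.21 to 0.49. Endoplasmic reticulum stress genes had 17 of 27 above 0, with PPP1R15B at 0.46 ± 0.17. Cytosolic chaperones had 22 of 38 above 0 and a median of 0.05. DNA replication genes (21 of 43 above 0), mitosis genes (15 of 45) and apoptosis genes (16 of 31) had medians of -0.01, -0.05 and 0.00. In these 3 lists POLD3 at 0.47 and DFFB at 0.49, and CYCS again, were the members at an unadjusted p under 0.05. The replicate 2 arrays gave 0.24 for POLD3 and 0.29 for DFFB, whose second probe set was at -0.01.

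Markers of other cells were measured beside these genes, and their part in the results above was not tested. In whole hearts, fewer cells of a type and less RNA per cell cannot be told apart. Red blood cell genes had 21 of 27 above 0 and a median of 0.14, or 0.23 in the replicate 2 arrays. Their median log2 level was 10.12 and 10.61 in hypoxia and 10.05 and 9.88 in normoxia. HBA1, the adult alpha globin, had 15.49 and 15.38 against 15.57 and 15.51, near the top of the array's range. HBE, an embryonic beta-type globin, had 11.90 and 11.12 against 10.24 and 10.21, a difference of 1.28 ± 0.32. The replicate 2 arrays gave 0.91 for HBE. SLC25A37, the mitochondrial iron importer of red cells, was at 0.64 ± 0.16, and BPGM, which makes bisphosphoglycerate, at -0.52 ± 0.12. TSPO2, LMO2 and the embryonic globin HBZ were at 0.70, 0.39 and 1.38.

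Leukocyte and macrophage markers had 17 of 28 above 0 and a median of 0.12, with median log2 levels of 8.16 and 7.92 in hypoxia and 7.71 and 7.64 in normoxia. Beside BLB1, C1QC was at 1.64 ± 0.62 and CD4 at 1.52 ± 0.59. In both, normoxia replicate 1 was under the dim limit and well below replicate 2, and the replicate 2 arrays alone gave 0.03 for C1QC and 0.79 for CD4. CD79B, IRF1 and LY86 were at 0.71, 0.58 and -0.55. Endothelial genes had 22 of 44 above 0, smooth muscle genes 3 of 15 and epicardial genes 3 of 9. Among these SOX7 was at 0.39, NPR3 at 0.47 and MYH11, the smooth muscle myosin, at -0.67, with unadjusted p under 0.05. NOTCH1 was at 0.32.

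Plasma proteins made by liver and yolk sac had the lowest median of the lists, -0.31, with 6 of 16 genes above 0. That rank did not hold in the replicate 2 arrays. There this median was -0.21, against -0.49 for catecholamine and autonomic genes and -0.28 for neural genes. ALB, albumin, had log2 signals of 7.77 and 7.69 in hypoxia and 9.87 and 10.18 in normoxia, a difference of -2.30 ± 0.71. TTR, transthyretin, had 7.44 and 7.09 against 8.02 and 8.84, a difference of -1.17 ± 0.42. AHSG had both hypoxia arrays under the dim limit, and was at -4.02 as measured and -0.60 with dim signals raised. SPINK7, placed in this list without a check of its source tissue, was at -1.62 as measured and -0.23 after raising. It was at -0.04 in Shouguang and 0.74 in Tibetan hearts. APOA1, an apolipoprotein, stood on the other side at 0.99 ± 0.29. ALB differed by -4.39 in Shouguang and -1.81 in Tibetan hearts, where the list's medians were -1.02 and -0.58.

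Among the smaller lists, receptors and transporters of catecholamine and autonomic signals had 3 of 9 genes above 0. Their median was -0.18, or -0.49 in the replicate 2 arrays. SLC18A2, the vesicular monoamine transporter, had log2 signals of 8.16 and 7.51 in hypoxia and 9.51 and 9.07 in normoxia, a difference of -1.45 ± 0.45. The adenosine receptors ADORA2A and ADORA1 were at -0.43 ± 0.14 and -1.43 ± 0.65, the latter dim on 1 hypoxia array and at -0.61 in the replicate 2 arrays. Skeletal muscle genes had 4 of 9 above 0, with MYH1B at 0.87 and TNNC2 at -1.45. Neural genes (4 of 16 above 0), platelet genes (5 of 8) and epithelial genes (4 of 7, KRT7 at 0.47) had medians of -0.16, 0.03 and 0.12. Cytosolic ribosomal proteins had 43 of 61 above 0 and a median of 0.05, with RPS12 at 0.26 and RPS25 at 0.23. Other probe sets ranged from -0.01 to 0.80 for RPS12 and from -0.49 to 0.24 for RPS25.

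**Figure D5:**
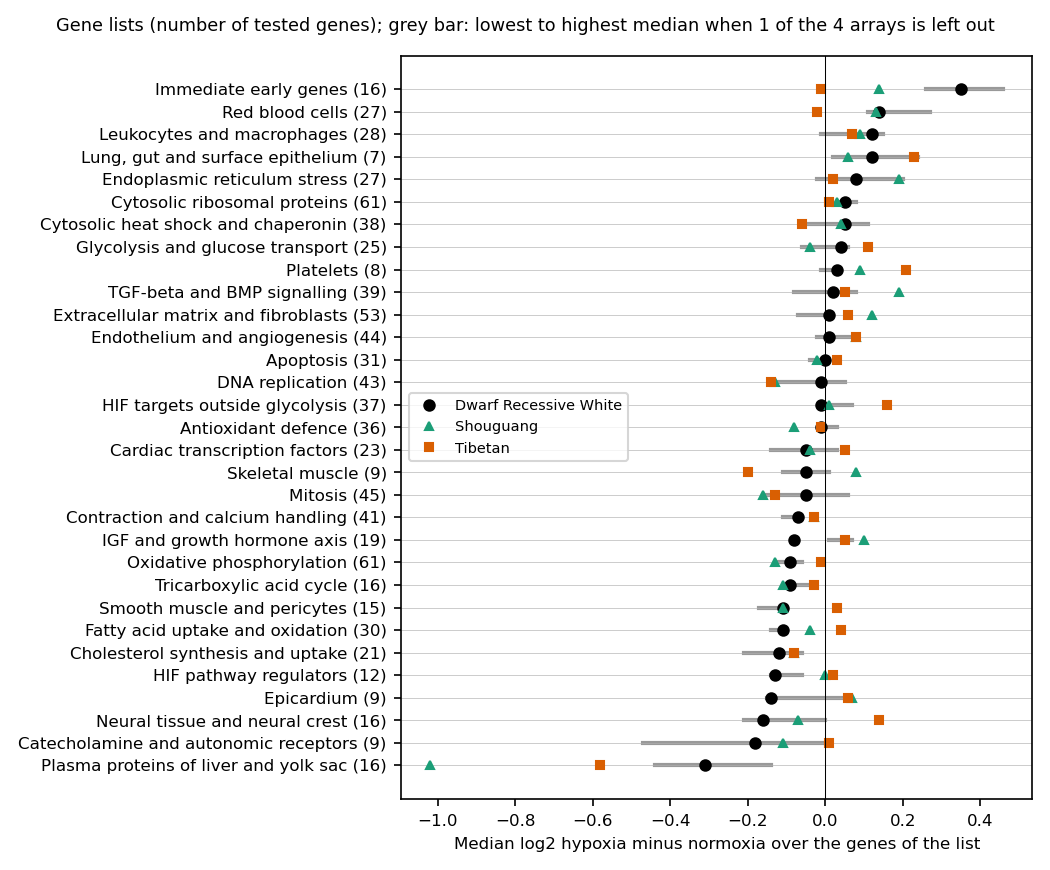
Median difference between hypoxia and normoxia (log2, horizontal axis) over the tested genes of each list, whose number is in brackets. Black circles are Dwarf Recessive White, green triangles Shouguang and orange squares Tibetan; the grey bar spans the medians of Dwarf Recessive White when 1 of its 4 arrays is left out. Immediate early genes lie highest for Dwarf Recessive White at 0.35 and plasma proteins lowest at -0.31.

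Whether hypoxia acted differently in Dwarf Recessive White hearts was tested as its effect minus the mean effect in Shouguang and Tibetan hearts. No probe set passed the adjusted threshold (0% called, smallest limma adjusted p 0.43), and 1095, or 4.75%, had an unadjusted p under 0.05. Pearson correlations of the differences were taken across the 23063 probe sets, which are not independent, with no array shared. Those of this breed correlated at 0.024 with those of Shouguang and 0.058 with those of Tibetan hearts. Shouguang and Tibetan differences correlated at 0.126 with each other. All 3 values were low, and how far scatter between arrays lowered them was not tested. The W-linked median was 1.59 in this breed and -1.2 in Shouguang hearts, and the Z-linked median -0.17 and 0.19. The part of these genes in the correlations was not tested.

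The smallest p belonged to TGM4, whose effect differed by 1.73 ± 0.26, with Shouguang and Tibetan hearts at -0.57 and -0.51. MAP3K4, a kinase that feeds the stress kinases p38 and JNK, had log2 signals of 10.96 and 11.06 in hypoxia and 10.52 and 10.30 in normoxia. Its effect differed by 0.96 ± 0.17. In this breed its other probe sets gave 0.20 and 0.21, against 0.60 for the one shown. KIF1B, a kinesin that carries mitochondria and synaptic vesicles, differed by -1.43 ± 0.26, although its other 3 probe sets ranged from -0.07 to 0.37 in this breed. APCDD1 and USP24 differed by -4.04 ± 0.69 and -3.22 ± 0.64 with dim hypoxia signals. The sixth, LOC107049459, is W-linked, at 1.69 in this breed and 0.57 in its replicate 2 arrays.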

How the data were processed

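Gene expression was measured on 12 Affymetrix arrays of chicken embryonic heart, 2 for each of 3 breeds in hypoxia and normoxia. Per the labels, RNA was isolated with TRIzol and hybridised as biotinylated cRNA. The deposited values are linear intensities per probe set, computed by the authors in GCOS (version unstated) according to the submitters' processing notes. The mean of each array without its highest and lowest 2% was 500.1, so the authors had scaled the arrays, and median signals were 134.2 to 155.0. No detection calls were used.

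Of 38535 probe sets the 96 controls were left out, signals were put on the log2 scale with no further normalization, and the 40th percentile filter (a signal of 79.5) was applied. The platform's table gave 1 symbol for 27178 probe sets, several for 177 and none for 11180; only those with 1 symbol were named. Of these, 26863 matched the GRCg7b gene table by gene ID, which placed genes on chromosomes. As the files name no build, no coordinates were used.

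Group means of all 12 arrays were fitted with limma 3.58.1 in R 4.3.3, and variances were moderated with a trend on signal (degrees of freedom 6 residual, 6.16 prior). Tests were two-sided with Benjamini-Hochberg adjustment. The other 2 breeds gave a test of the difference of effects (median SE 0.32). Lists (32, with 836 distinct tested genes, 1 probe set per gene, the brightest) are described by counts and medians, with no test. Genes picked by rule were those that passed and the 12 smallest p-values above and below 0 without overlap of the arrays (1 probe set per gene, the smallest p). The rule also took the 3 smallest p-values of each list, not all of which are described. A fixed choice of HIF, cardiac, globin and W-linked genes and the 6 smallest p-values of the difference of effects completed it. Genes, lists and rules were chosen with earlier results of these data known. The fit was tested on simulated data of 23063 probe sets. At a log2 change of 1 it called 17 of 50 rises and 10 of 50 falls. At a log2 change of 2 it called 37 of 50 rises and 33 of 50 falls, and there were 4 false calls.

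Replicate numbers were not treated as pairs in the main fit. The deviations of same-numbered arrays correlated at 0.059 to 0.199 between groups, and at 0.091 for the 2 groups compared here. All these values were low but positive, and whether same-numbered arrays shared a step was not tested. Alternatives were other filters, normalizations, offsets and thresholds, dim signals raised to the limit, a fit without the trend, the replicate number as a block, weighted arrays, the 4 arrays alone, 1 probe set per gene, the W-linked level as a covariate, genes on Z and W left out, and each array left out. The fit with only the replicate 2 arrays of this breed was added after the data had been seen.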

Additional observations from a re-analysis of the deposited data

Results flagged for a closer look

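In the genes below, the 2 hypoxia and 2 normoxia arrays did not overlap in Dwarf Recessive White nor in another breed, and the directions were opposite. In Dwarf Recessive White the arrays did not overlap for 18.9% of all tested genes with hypoxia higher and 18.1% with hypoxia lower. The genes below were drawn only from genes picked for this report, some of them because their arrays did not overlap in this breed. They are not all of the picked genes with opposite directions and no overlap. VHL, at -0.62 here against 0.61 in Shouguang hearts, had this pattern too, as did MTHFD2, TP63 and HADH. The share of opposite directions over all tested genes is not given. The test of the difference of effects passed for none of them (smallest limma adjusted p 0.43). TGM4 was at 1.19 here against -0.57 in Shouguang and -0.51 in Tibetan hearts, and MAP3K4 at 0.60 against -0.27 and -0.45. Other probe sets of MAP3K4 were at 0.20 and 0.21 here. USP24 was at -2.65 against 0.75 and 0.39, with both hypoxia signals of this breed dim. BMP10, a growth factor of the trabecular heart muscle, was at -0.48 against 3.08 and 0.64, and was added after its value had been seen. CD79B, a B cell receptor subunit, was at 0.71 against -0.45 and -0.18.

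Against Shouguang hearts alone, MYH7 was at -2.15 against 2.55, APCDD1 at -3.42 against 1.18, MT3 at 0.97 against -0.36, ID3 at -0.53 against 0.46, LY86 at -0.55 against 0.23, LMO2 at 0.39 against -0.13, JMJD6 at 0.31 against -0.11 and the Z-linked SMAD2 at -0.35 against 0.19. The W-linked HNRNPKL and LOC107049459 were at 2.56 and 1.69 against -1.89 and -1.40, and at 0.20 and 0.57 in the replicate 2 arrays of this breed. The W-linked level of the Shouguang arrays was itself higher in normoxia than in hypoxia, the opposite of this breed.

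Against Tibetan hearts alone, KIF1B was at -1.13 against 0.36, TBX20 at -0.97 against 0.22, P4HA2 at -0.74 against 0.41, HSPB9 at 0.54 against -0.29, ZFP36L1 at 0.52 against -0.21, ADORA2A at -0.43 against 0.25, GATA5 at -0.29 against 0.26 and PDK1 at -0.21 against 0.09.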

How the results depend on the processing

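The count of passing probe sets, 1, was 0 without the intensity trend, 0 when each array's W-linked level entered as a covariate, 0 with only the replicate 2 arrays of the breed, 3 with 1 probe set per gene (CCN2, BLB1 and THBS4), 3 at an adjusted p of 0.1 and 7 when only the 4 arrays compared were fitted. With the replicate block it was 3 (CCN2, THBS4 and MFAP5), although whether the numbers pair the arrays was not tested. It stayed at 1 under the other filters, both other normalizations, the offset of 26.6, raised dim signals, array weights, the 2-fold threshold and without genes on Z and W. Leaving out each of the 12 arrays gave 0 to 23, the highest without normoxia replicate 2 of this breed, where the calls included the W-linked HINTW and HNRNPKL. For the difference of effects the count was 0 and, leaving out each array, 0 to 13, the highest again without that array. The cause was not tested.

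CCN2 stayed between 1.37 and 1.59 in every alternative run. Some named genes turned sign. Most of those given here were near 0 in the main fit, but HK2 was at 0.42 and HINTW at 3.32. SLC2A1 was -0.13 with the W-linked covariate, -0.14 in the replicate 2 arrays alone and -0.15 to 0.17 leaving out each array. NDRG1 was -0.02 with the covariate and -0.04 in the replicate 2 arrays, where HK2 was -0.18, MYH7B 0.04 and HINTW -0.04. MYH7B was 0.01 with the covariate and -0.15 to 0.02 leaving out arrays. NPPA was -0.01 after median centring and -0.03 to 0.03 leaving out arrays, and ADM -0.38 to 0.11. With 2 arrays a condition and no detection calls, differences of dim probe sets and small differences are the least certain values here.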

Other observations

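Chromosome 16 of the GRCg7b assembly, the microchromosome that carries the chicken major histocompatibility complex, had 26 tested genes, of which 17 were above 0, and it was looked at after BLB1 had been seen. At an unadjusted p under 0.05, 3 were higher and 1 lower, where 3.25% and 2.82% of all tested genes were. Among chromosomes with 10 or more tested genes, W had the largest share in either direction, 7 of 14 genes, all higher. After W came chromosome 16 at 15.4%, Z at 9.5%, chromosome 26 at 8.9% and chromosome 18 at 8.0%. Beside BLB1, the genes of chromosome 16 at that level were TAPBP, LOC107049794 and TNX. TAPBP, a chaperone of peptide loading, had log2 signals of 9.93 and 9.73 in hypoxia and 9.45 and 9.30 in normoxia. LOC107049794 was at 2.17 ± 0.50, with both normoxia arrays dim. TNX, a tenascin, was at -1.94 ± 0.55, with 1 hypoxia array dim, and at -2.60 to -1.27 when each array was left out. TAP2, the peptide transporter, was at 0.35 ± 0.30 and the class I gene BF2 at -0.32 ± 0.46. All were chosen after their values were seen, and none passed the adjusted threshold.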
